A study of Mus musculus with 2 samples.

Results

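The clustered protocadherins are 57 protein-coding genes in 3 neighbouring arrays on mouse chromosome 18, here described by the H3K4me3 peaks at their starts. They were taken from a RefSeq gene table of 21883 protein-coding genes by symbol, and comprised 14 alpha, 22 beta and 21 gamma genes. Pcdhgb8, which the table lists as a transcribed pseudogene, was left out and had no peak at its start. Peaks were taken from the span of these genes plus 10 kb on either side, which held 21 of the 19265 peaks in the authors' list. H3K4me3, the trimethyl form of lysine 4 on histone H3, marks the starts of active and poised genes and was profiled by chromatin immunoprecipitation and sequencing in adult mouse neural progenitor cells grown in N2 medium with EGF and bFGF. The data are 1 H3K4me3 library, labelled "con" with no further explanation, and 1 input library of the same cells, both recorded as untreated; the labels give no strain, genotype or exact age and name no transgene or clone. With 1 library of each kind there is no spread between cultures to set a value against, and no test between conditions or genes was possible.

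Clustered protocadherins are cell surface proteins of the cadherin superfamily that give neurons individual identities. In the alpha and gamma arrays each variable exon has its own promoter and is spliced to constant exons shared by the whole array, whereas each beta gene is a single large exon. A neuron switches on a small and largely random choice of the variable promoters, through CTCF and cohesin and loss of DNA methylation. The C-type isoforms at the downstream edge of the alpha and gamma arrays are instead expressed more steadily and in many cells.

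After filtering, the H3K4me3 library held 18156769 tags (sequenced fragments' ends) and the input 17831241. The weakest listed peak held 13 tags, so a start without a peak is one with no called peak at this depth. The progenitor label was set against marker genes. Of 7 neural progenitor genes 6 had a start peak, with Sox2 at a fold enrichment of 49.2 and Nes at 44.8, and Pax6 had only a peak inside the gene. None of 4 microglia and none of 3 endothelial genes had one, and 3 of 6 neuron, 1 of 3 astrocyte and 1 of 4 oligodendrocyte genes did. Pecam1, an endothelial gene, had only a weak peak inside the gene (24 tags, fold enrichment 8.68). Among coding genes in general with a known strand, 55.2% had a start peak. The exact 95% interval over genes of the progenitor share (42.1 to 99.6%) includes that value, as do those of the other lists here. These counts thus do little to tell the cell type. Fold enrichment is the authors' ratio for each peak, with the input as background. It need not follow the number of tags in the whole peak.

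Few of the 57 clustered genes carried the mark at their own start. A peak was counted at a start when it overlapped the window of 1 kb either side of it. The genes are known to be read towards the higher coordinate, so the start is the lower end of each gene, the end that the alpha and the gamma genes do not share. A start peak lay at 13 of 57 members, which is 22.8% (exact 95% interval over genes 12.7 to 35.8), against 55.2% of the 17491 protein-coding genes on other chromosomes whose strand was known. The beta array had 8 of 22 (36.4%, interval 17.2 to 59.3), the alpha array 2 of 14 (14.3%, interval 1.78 to 42.8) and the gamma array 3 of 21 (14.3%, interval 3.05 to 36.3). The split by kind was wider than the split by array. Of the 5 C-type genes 4 were marked (80%, interval 28.4 to 99.5), and of the other 52 members 9 were (17.3%, interval 8.23 to 30.3). These intervals overlap slightly. The interval of the C-type genes includes the 55.2% of coding genes in general, as does that of the beta array. The beta array has no C-type genes, and without them 0 of 12 alpha and 1 of 18 gamma genes were marked. Genes are not replicates, and these intervals cover counting error only. Fewer cells with a marked start and less mark per cell cannot be told apart in these bulk data. Clustered protocadherin genes are close copies of each other, and the sources used here do not say how reads that match several copies were placed.

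**Figure D1:**
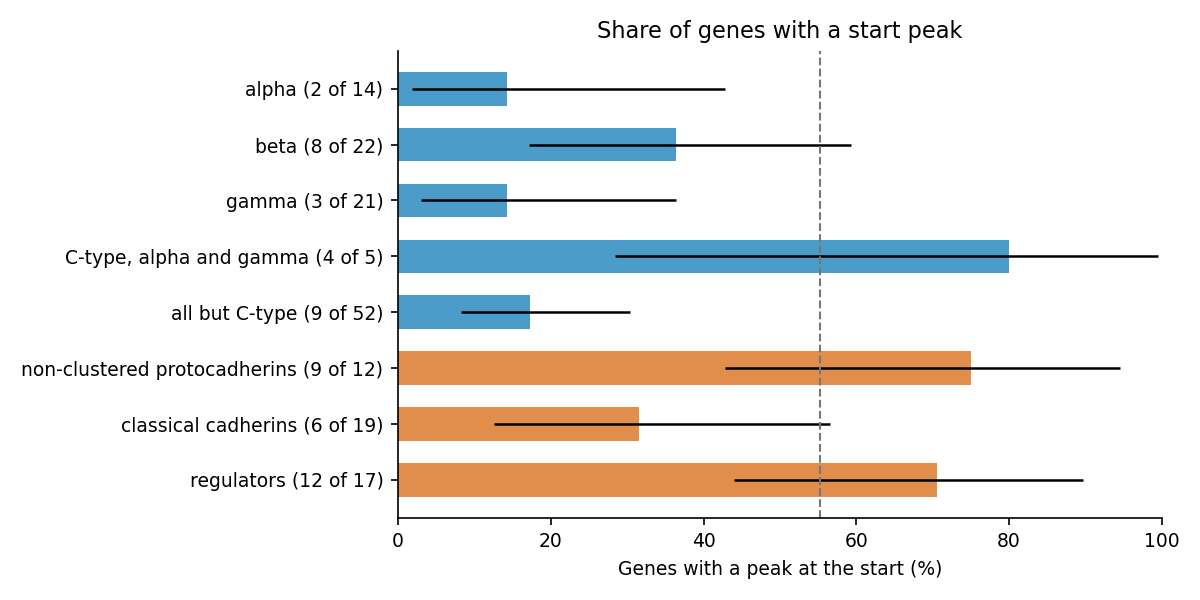
Share of genes with an H3K4me3 peak at the start (x axis, percent), by array and kind of clustered protocadherin (blue) and for 3 comparison lists (orange). Lines are exact 95% intervals over genes, the dashed line is the 55.2% of all protein-coding genes with a known strand, and the C-type bar (4 of 5) stands above it while alpha, beta and gamma stand below. The intervals of C-type and beta include the dashed line, and those of alpha and gamma do not.

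How a shared end is counted decides what such an array looks like. With a peak at either end of the gene, 31 of 57 members would be marked, beside 56.3% of all protein-coding genes. All 21 gamma genes then count, because 1 peak lay at the end they share. That peak was weak, with 56 tags and a fold enrichment of 5.42 over 1250 bp (mm10 chromosome 18, 37841796 to 37843045). It also lay at an end of Diaph1, a formin gene that is the next coding gene after the array, and at the end of the predicted genes Gm37013, Gm38666 and Gm38667, whose models run from the alpha array to the gamma end. Without the shared end the count was the same 13 as at the starts. No peak lay at the end shared by the alpha genes.

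Of the alpha starts, those of the C-type genes had a peak and those of the variable genes had none. The 12 genes Pcdha1 to Pcdha12, the variable alpha isoforms, start within 89.9 kb of each other and none had a start peak (0 of 12, upper limit 26.5%). They lay in a stretch of 286 kb with no peak at all (36803329 to 37089676). Of 19240 such stretches between neighbouring peaks on the assembled chromosomes, whose median was 40.5 kb, 9.36% were longer. The nearest peak to any of these 12 starts was 69.4 kb away, from Pcdha12. Pcdhac1, the first C-type gene, ended the stretch with a peak of 69 tags over 1059 bp and a fold enrichment of 16.6 (37089677 to 37090735). Pcdhac2, the last gene of the array, had 279 tags over 2086 bp and a fold enrichment of 31.7 (37142904 to 37144989). The tag counts of these 2 genes differed by more than counting error, with exact 95% Poisson intervals of 53.7 to 87.3 for Pcdhac1 and 247 to 314 for Pcdhac2. Per length the Pcdhac2 peak held 134 tags per kb and the Pcdhac1 peak 65.2.

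**Figure D2:**
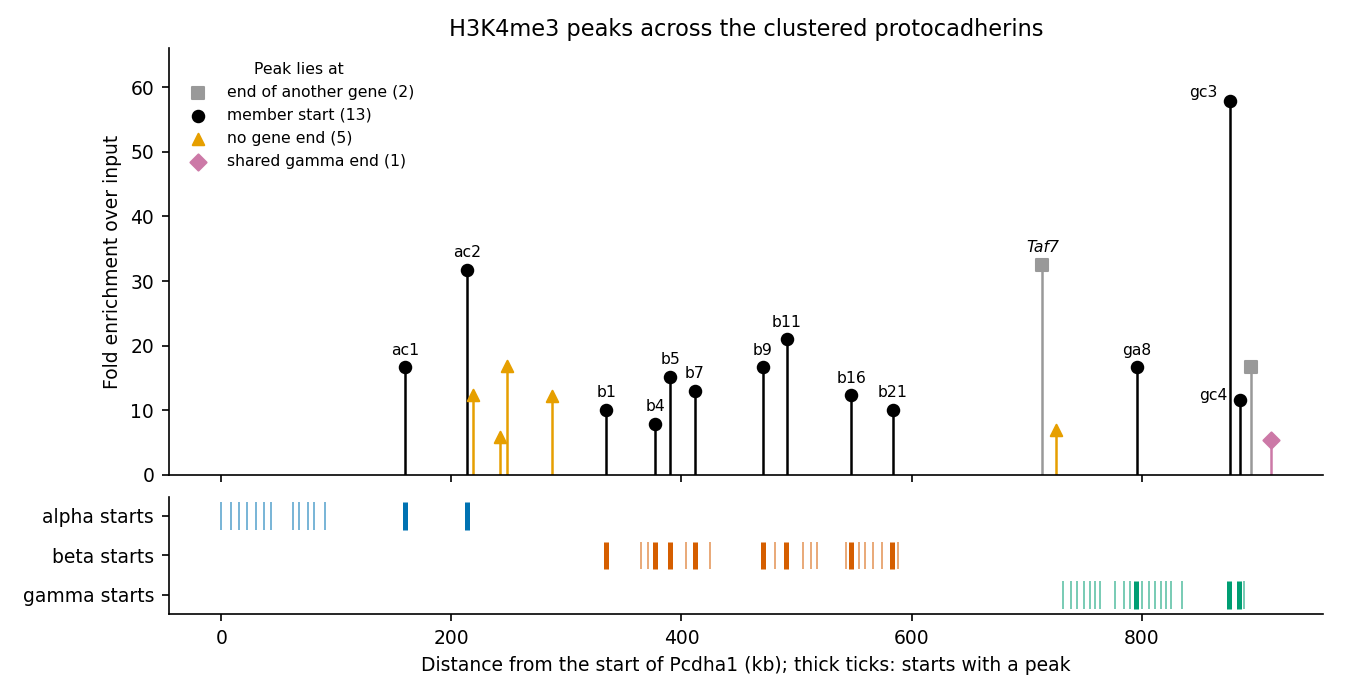
Fold enrichment over the input (y axis) of the 21 peaks across the arrays, by distance of the peak's summit from the start of Pcdha1 (x axis, kb), with marker shapes for where the peak lies. Below, each tick is the start of a gene, thick where it has a peak: the 12 variable alpha starts at the left have none, 8 of 22 beta starts have one of 7.96 to 21.0, and Pcdhgc3 at the right reaches 57.9.

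The marked beta genes were spread along their array and all had weak peaks. They were Pcdhb1, Pcdhb4, Pcdhb5, Pcdhb7, Pcdhb9, Pcdhb11, Pcdhb16 and Pcdhb21, each encoding a transmembrane protein from a single exon. The strongest was Pcdhb11, with 97 tags over 1291 bp and a fold enrichment of 21.0 (37421083 to 37422373). Pcdhb9 followed at a fold enrichment of 16.6, from 32 tags on the shortest peak of the array, 578 bp (37400673 to 37401250). Pcdhb9 thus ranked next to the top of the array by fold and last by tags. The weakest by fold was Pcdhb4, with 33 tags over 840 bp and a value of 7.96 (37307260 to 37308099), and this peak also reached an end of the pseudogene Gm18529. Pcdhb1 and Pcdhb21, the next weakest, shared a value of 10.1, with 50 tags over 1095 bp (37264499 to 37265593) and 44 tags over 966 bp (37513578 to 37514543). Between Pcdhb9 and this pair in fold lay Pcdhb5 with 15.2 (64 tags), Pcdhb7 with 13.0 (43 tags) and Pcdhb16 with 12.3 (41 tags).

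By tags the beta genes ran from 97 at Pcdhb11 down to 32 at Pcdhb9. Pcdhb11 had an exact Poisson interval of 78.7 to 118 and Pcdhb5, the next, 49.3 to 81.7, so these neighbours overlapped. The intervals of every pair of neighbours further down also overlapped. Genes further apart in this order could differ: the interval of Pcdhb5 lay above those of Pcdhb4 (22.7 to 46.3) and Pcdhb9 (21.9 to 45.2). The median beta start peak had a fold enrichment of 12.7, 43.5 tags and a length of 938.5 bp. No peak was called at the starts of Pcdhb2, Pcdhb3, Pcdhb6, Pcdhb8, Pcdhb10, Pcdhb12 to Pcdhb15, Pcdhb17 to Pcdhb20 and Pcdhb22. All 8 peaks in the beta array lay at a gene start, and none lay between genes. In gene order, 1 of the 21 pairs of neighbours had a peak at both starts (Pcdhb4 and Pcdhb5), 7 at neither and 13 at 1 of the pair. The longest runs without a peak were of 4 genes each, Pcdhb12 to Pcdhb15 and Pcdhb17 to Pcdhb20.

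The gamma array held the strongest peak of all 3 arrays and long unmarked stretches. Pcdhgc3, the first gamma C-type gene, lay under 5995 bp with 1057 tags and a fold enrichment of 57.9 (37805137 to 37811131). Its score of 3100 was shared by 3926 peaks of the list, so the score does little to rank it. Pcdhgc4, the next C-type gene, had 114 tags over 2196 bp and a fold enrichment of 11.6 (37813681 to 37815876). Pcdhgc5, the last, had no start peak. The nearest peaks ended 3.67 kb before its start, the one at Pcdhgc4, and began 4.17 kb after it. The intervals of the tag counts did not overlap between Pcdhgc3 (994 to 1123) and Pcdhac2, nor between Pcdhac2 and Pcdhgc4 (94.0 to 137).

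Among the 18 gamma genes that are not C-type, Pcdhga8 alone had a start peak (5.56%, interval 0.141 to 27.3). It held 64 tags over 860 bp with a fold enrichment of 16.6 (37725567 to 37726426), within the range of the beta peaks. The other 11 gamma-A genes, Pcdhga1 to Pcdhga7 and Pcdhga9 to Pcdhga12, had none. None of the 6 gamma-B genes (Pcdhgb1, Pcdhgb2 and Pcdhgb4 to Pcdhgb7) had one either. The starts from Pcdhga1 to Pcdhgb4 lay in a peak-free stretch of 69.5 kb with 10 members, and those from Pcdhgb5 to Pcdhga12 in one of 78.7 kb with 7. Of the 1514 tags in gamma peaks 69.8% lay in the Pcdhgc3 peak, and of the 606 tags in alpha peaks 46.0% lay at Pcdhac2. The beta peaks held 404 tags, over 7.45 kb against 7.37 kb in alpha and 13.4 kb in gamma, or 54.2, 82.2 and 113 tags per kb. These sums cover all peaks of each array, and unlike the 8 beta peaks not all of the others lay at gene starts. At starts lay 2 of the 5 alpha peaks, with 348 tags, and 3 of the 5 gamma peaks, with 1235.

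The start peaks sat over the annotated start in each of the 13 marked genes. Measured from the start in the direction of reading, the summits lay from 153 bp before it, at Pcdhb1, to 393 bp after it, at Pcdhgc4. The median was 161 bp after it, and 9 of 13 summits lay within 200 bp. Among 8672 start peaks of coding genes with known strand the median was 285 bp after the start (quartiles 155.8 and 500) and 25.9% lay within 200 bp. Those of the 1003 with a fold enrichment between 7.96 and 21.0, the range of the 9 marked members that are not C-type, had a median of 214 bp and 36.5% within 200 bp. This range was chosen after the members' values were seen. The summits at these 9 members also had a median of 161 bp after the start. The 9 of 13 within 200 bp is not limited to them, since it includes C-type peaks. The 9 peaks reached 72 to 499 bp before the start and 395 to 955 bp after it, with a median length of 911 bp. Start peaks of coding genes in the same range of fold had a median length of 1200 bp (quartiles 932.5 and 1505) and 78 tags, against 44 tags at the 9 members.

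**Figure D3:**
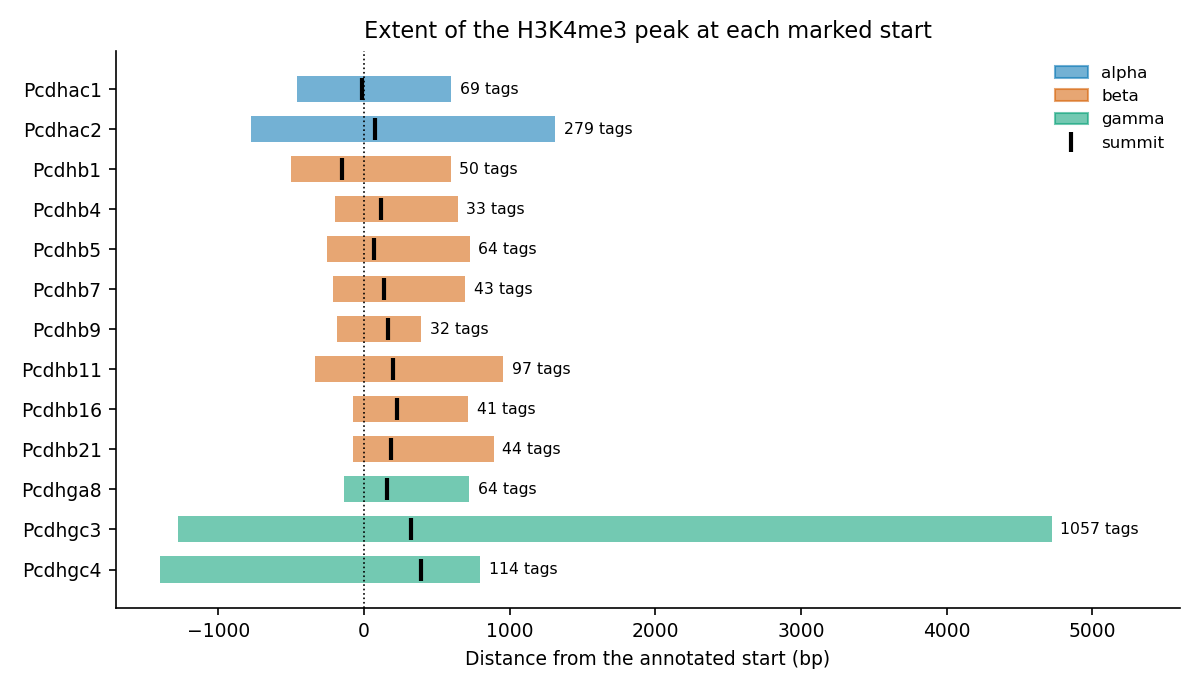
Extent of each of the 13 start peaks around its annotated start (x axis, bp, positive in the direction of reading), coloured by array, with the summit as a black tick and the tag count at the right. The 9 beta and gamma-A peaks are short and hold 32 to 97 tags, while Pcdhgc3 runs to 4721 bp after its start with 1057 tags.

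Against all start peaks Pcdhgc3 was high, Pcdhac2 lay between the quartiles and the other 11 lay below the lower quartile in fold. The median fold enrichment of the 8672 start peaks was 39.1, with quartiles of 29.7 and 45.6. Of the 13 member peaks 1 lay above this median, Pcdhgc3, which exceeded 97.8% of start peaks in fold, 99.0% in tags and 98.9% in length. Pcdhac2 exceeded 29.3% in fold, 38.9% in tags and 46.9% in length. Pcdhgc4 exceeded 4.19% in fold and 52.4% in length, so that it was of usual length and low in height. The 8 beta peaks exceeded from 0.969% (Pcdhb4) to 12.0% (Pcdhb11) of start peaks in fold. Pcdhac1 and Pcdhga8 each exceeded 8.08%. The median of the 13 was 15.2 in fold and 977 bp in length, against 39.1 and 2147 bp.

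The remaining 8 peaks of the span lay away from member starts and held 32.6% of its 2950 tags. The strongest lay at an end of Taf7, which encodes a subunit of the general transcription factor TFIID and lies between the beta and gamma arrays. It had 274 tags over 2212 bp with a fold enrichment of 32.6 (37642797 to 37645008), above every member but Pcdhgc3. Slc25a2, a mitochondrial carrier gene beside it, had no peak at either end. Zmat2, the nearest coding gene before the arrays at 131 kb, had a peak of 50.2, and the far end of Diaph1 one of 47.0, so that 3 of the other genes in and around the arrays carried peaks of 32.6 to 50.2. The predicted genes Gm37013, Gm38666 and Gm38667 had no peak at the alpha end of their models.

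Several peaks lay inside the alpha array or between arrays, where the table gives no gene end. Inside the genes of the alpha array, one of 190 tags over 2613 bp with a fold enrichment of 16.9 (37176431 to 37179043) lay 9.85 kb before the furthest annotated alpha end. Weaker ones lay 5.18 kb and 28.1 kb after the Pcdhac2 start, with fold enrichments of 12.3 and 5.95. Between the alpha and beta arrays a peak of 129 tags over 1444 bp with a value of 12.2 (37216946 to 37218389) lay 28.0 kb beyond the alpha end. An enhancer of the alpha array, known as HS5-1, lies downstream of its constant exons; its position is not in the sources used here, and none of these peaks was matched to it. A peak of 23 tags and a value of 6.90 lay 5.68 kb before Pcdhga1. Inside the gamma array, 4.17 kb after the Pcdhgc5 start, lay a peak of 223 tags over 3057 bp with a value of 16.6 (37823712 to 37826768). It was 343 bp from Gm29994, a long non-coding RNA gene. The last peak before the window of 10 kb lay 127 kb from the arrays (320 tags, fold enrichment 30.7) and the first one after it 37.8 kb from them (60 tags, 19.1). The peaks just inside it were those at Pcdhac1 and at the shared gamma end.

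A larger share of the protocadherins outside the arrays had a start peak, mostly a stronger one. Of 12 non-clustered protocadherin genes, which encode adhesion proteins from separate loci, 9 had a start peak (75%, interval 42.8 to 94.5), with a median fold enrichment of 30.4. That interval includes the 55.2% of coding genes in general. For Pcdh1, Pcdh11x and Pcdh12 the strand was not known and either end counted. Pcdh1, which lies on the same chromosome after the arrays, had the highest value at 39.1, followed by Pcdh7 with 35.2 over 9427 bp and 1604 tags. Pcdh19 had 34.7, Pcdh9 and Pcdh18 had 30.4 each, Pcdh10 had 25.3, Pcdh17 had 23.9, Pcdh8 had 13.3 and Pcdh20 had 10.1. Pcdh11x and Pcdh12 had no peak, and Pcdh15 had one inside the gene only, of 25.3. The ranges of the clustered (7.96 to 57.9) and non-clustered genes (10.1 to 39.1) overlapped. The 2 proportions, 13 of 57 and 9 of 12, have intervals over genes that do not overlap, but this rests on the rule for a start peak. With the summit required inside the window, 6 of 12 non-clustered genes counted (interval 21.1 to 78.9), beside 50.3% of coding genes in general. That interval overlaps the one of the clustered genes, still 13 of 57 (12.7 to 35.8). With windows of 500 bp or an overlap of at least 200 bp, 8 of 12 counted (34.9 to 90.1), which also overlaps it. With windows of 2500 bp (10 of 12, interval 51.6 to 97.9) and with either stricter threshold on p or fold the intervals stayed apart. Without replicate libraries the difference itself was not tested.

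Of 19 classical cadherin genes, the adhesion genes of the same superfamily, 6 had a start peak (31.6%, interval 12.6 to 56.6). This interval overlaps that of the clustered members and also includes the 55.2% of coding genes in general. Their peaks were stronger than those at most members, with a median fold enrichment of 41.2. The strongest were at Cdh20, with 48.5 over 5421 bp, and Cdh22, with 46.3 over 2656 bp. The strand was known for 11 of the 19, and either end counted for the rest.

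**Figure D4:**
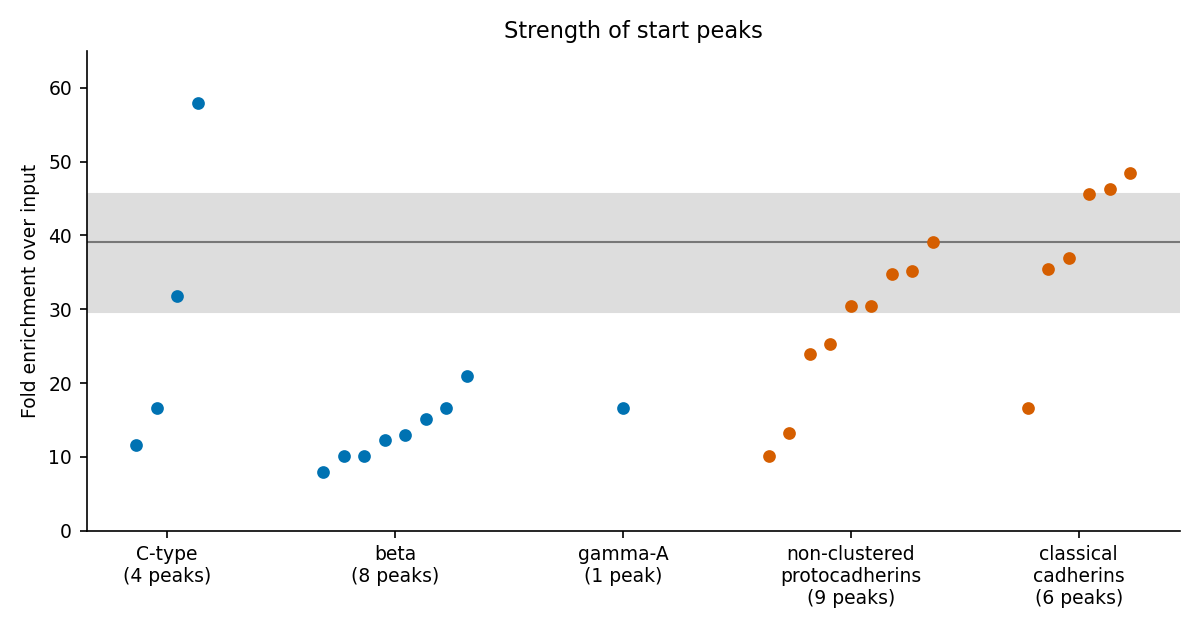
Fold enrichment over the input (y axis) of each start peak at clustered protocadherins (blue: C-type, beta, gamma-A) and at 2 comparison lists (orange); genes without a peak are not drawn. The grey band and line are the quartiles and median (29.7, 39.1 and 45.6) of all 8672 start peaks, and of the blue points Pcdhgc3 lies above the band and Pcdhac2 inside it.

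Genes that act on the clustered promoters or on their proteins carried the mark at a share that cannot be told from that of coding genes in general. Of 17 such genes 12 had a start peak (70.6%, interval 44.0 to 89.7, against 55.2% at starts and 56.3% at either end), with fold enrichments of 27.5 to 50.3 and a median of 43.0. Ctcf, whose zinc-finger protein binds the variable promoters and their enhancers, had 47.9 over 3369 bp. Among cohesin and its regulators Smc3 had 50.3, Wapl 47.7, Smc1a 28.9 and Stag2 27.5, while Rad21, Stag1 and Nipbl had peaks of 49.99, 46.3 and 39.1 inside the gene and none at the annotated start. Among genes of repressive chromatin Rest and Smchd1 had 49.2 each, Dnmt3b, a DNA methyltransferase, had 38.3 and Setdb1, an H3K9 methyltransferase, had 31.8. Adam10, whose protease cleaves protocadherins, had 34.5. Of the signalling partners, the kinase genes Fyn and Ptk2 had 47.7 and 32.6. Ptk2b, the gene of the related kinase Pyk2, had only a peak inside the gene of 39 tags with a value of 8.68, and Axin1 one of 44.8. Strand was known for 10 of these 17 genes, and either end counted for the rest.

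Peaks of equal fold enrichment could hold different numbers of tags. The value 16.63 belonged to Pcdhac1 (69 tags), Pcdhga8 (64 tags) and Pcdhb9 (32 tags), and to the peak of 223 tags near Gm29994.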

How the data were processed

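The authors' peak list of 1 H3K4me3 library was used; the 1 input library enters it as background. MACS 1.4.2 called the peaks at a p cutoff of 1e-05 and kept 1 tag per position, per the file header, whereas the submitters' processing notes give MACS2 2.1.0, with mm10 as the build. The sources used here name no aligner. Deposited tag counts are whole numbers and not normalized. Fold enrichment (a ratio), score (10 times the negative log10 p) and false discovery rate in percent are the authors' values, per the file header, used to describe and rank peaks within the list.

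Genes came from a RefSeq table of GRCm38.p6, the assembly mm10 names, which gives ends without strand. Strand came from a RefSeq promoter table, for 17491 of 21883 coding genes and none on chromosome 18. Listed genes without it were counted at either end. Of several peaks at a gene the one of highest fold was used, and a start peak shared by 2 coding genes entered the background of peaks once. Shares carry exact (Clopper-Pearson) 95% intervals and tags exact Poisson ones. Both cover counting error only, since 1 library of each kind gives no spread between cultures. No test was possible, and the planned description of promoter sequence was not made.

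The members and lists were chosen with earlier results of these data known. By rule the text names all members, the coding genes inside and beside the arrays, all non-clustered protocadherins, the 2 strongest cadherins and regulators without a peak; other regulators were named after their values were seen, and 1 gene of their list is not reported here. The overlap step was tested on simulated data. Python 3.11.15, pandas 2.3.3 and scipy 1.17.1 were used.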

Additional observations from a re-analysis of the deposited data

How the results depend on the processing

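The count of 13 marked members, and the same 13 genes, held with windows of 500 bp and 2500 bp, with the summit required inside the window, with an overlap of at least 200 bp, with only peaks at no end of another coding gene, and at a -log10 p of 10 or more. With a fold enrichment of at least 10, Pcdhb4 was lost and 12 remained. The count with a peak at either end moved from 31 to 13 when the shared end was left out. The share of all coding genes with a start peak ran from 50.3% to 57.4% under the same window, overlap and threshold settings. The non-clustered count of 9 of 12 ran from 6 (summit inside the window) to 10 (windows of 2500 bp), the cadherin count of 6 from 5 to 7 and the regulator count of 12 from 10 to 14. No paired analysis was possible because there is 1 library of each kind. Depth limits the unmarked starts: a start with fewer tags than the caller needs is not listed.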

Other observations

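Spacing along the beta array was compared between marked and unmarked genes, as a description. The 7 marked genes with a member before them started 1.43 to 43.2 kb after the end of that member (median 5.99 kb), and the 14 unmarked genes 1.18 to 27.4 kb after it (median 3.52 kb). The space after the gene had medians of 9.58 kb for the 8 marked genes and 3.19 kb for 13 unmarked ones, with ranges of 1.98 to 27.4 kb and 1.18 to 43.2 kb. The ranges overlap widely, and no test was made. Gene lengths were alike, with medians of 3519.5 bp and 3333.5 bp. Peaks per 100 kb of array numbered 1.93 in alpha, 3.12 in beta and 2.78 in gamma.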
